A study of Mus musculus with 2 samples.

Results

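Cluster 3 is 1 of 18 clusters that the authors drew from the tumor cells of 2 mice, and its members are the cells with the number 3 in the deposited cell annotation. It held 597 of 9159 annotated cells. Of these, 440 came from mouse 1, where they were 11.5% of 3829 annotated cells, and 157 came from mouse 2, where they were 2.95% of 5330. The cluster had been put forward as the tumor cells with the most Esr1, with Esr1 and Areg as its markers. Since the authors clustered the cells on their expression, every value that sets cluster 3 against other cells is given as a description and carries no p-value.

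Both mice were Krt8-CreERT/Rosa26-mTmG/MMTV-PyMT animals, so no sample lacked an allele or went without tamoxifen, and there is no control group. MMTV-PyMT is an oncogene driven in mammary epithelium by a viral promoter, here in a line of C57Bl/6 J background. Krt8-CreERT is a recombinase that works only in Krt8-expressing cells while tamoxifen is present, and Rosa26-mTmG turns green where it has acted, which marks luminal cells and all their descendants. Tamoxifen was given at 150 mg/kg on 3 days at 5 weeks and on 3 days at 6 weeks of age, and tumors were taken at a volume of 1.5 cm3. Cells that were GFP+, DAPI-, CD31- and CD45- were sorted, so the gate should leave out endothelial cells, leukocytes and unlabelled cells. Transcripts were counted as unique molecular identifiers (UMIs), and for each mouse these counts were added up over the members of a cluster.

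Esr1 encodes estrogen receptor alpha, a nuclear receptor that switches genes on when it binds estrogen. In the normal mammary duct it is found in hormone-sensing luminal cells, which also carry the progesterone receptor Pgr and the pioneer factor Foxa1. These cells answer estrogen by releasing amphiregulin, the product of Areg. Amphiregulin is a ligand of the epidermal growth factor (EGF) receptor and drives the growth of neighbouring cells that lack the estrogen receptor.

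The label was first set against the data. Cluster 3 had 116.9 CPM (UMIs of a gene scaled to a total of 1000000) of Esr1 in mouse 1 and 225.1 in mouse 2, on 1296 and 630 UMIs. Its mean of 171 ± 76.6 CPM (SD, n = 2 mice) was the highest of the 18 clusters, and it ranked first in mouse 2. In mouse 1 it ranked 3 of 18, behind cluster 15 with 125.4 CPM and cluster 4 with 124.6 CPM. The next means were 130.5 ± 72.7 CPM in cluster 17 and 130.3 ± 8.03 CPM in cluster 4. Cluster 17 was below cluster 3 in both mice, at 79.1 and 181.9 CPM. Cluster 4 was above cluster 3 in mouse 1 and below it in mouse 2, at 136.0 CPM. These differences were not tested. The lowest mean, in cluster 10, was 17.3 CPM. The label "Esr1-highest" therefore held for the mean and for mouse 2, and in mouse 1 cluster 3 was among the 3 highest.

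Areg was at 1738 CPM in cluster 3 of mouse 1, the highest of the 18 clusters, and at 970 CPM in mouse 2, where it ranked 3 of 18. Cluster 15 had 1999 CPM and cluster 13 had 1508 CPM of Areg in mouse 2. Cluster 15 held only 17 cells in that mouse. The means of clusters 3, 15 and 13 were 1354 ± 543, 1338 ± 935 and 1174 ± 472 CPM (SD, n = 2), which do not differ beyond their spread. Every other cluster had a mean of at most 717 CPM. Among these, cluster 16 reached 1215 CPM in mouse 1.

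**Figure D1:**
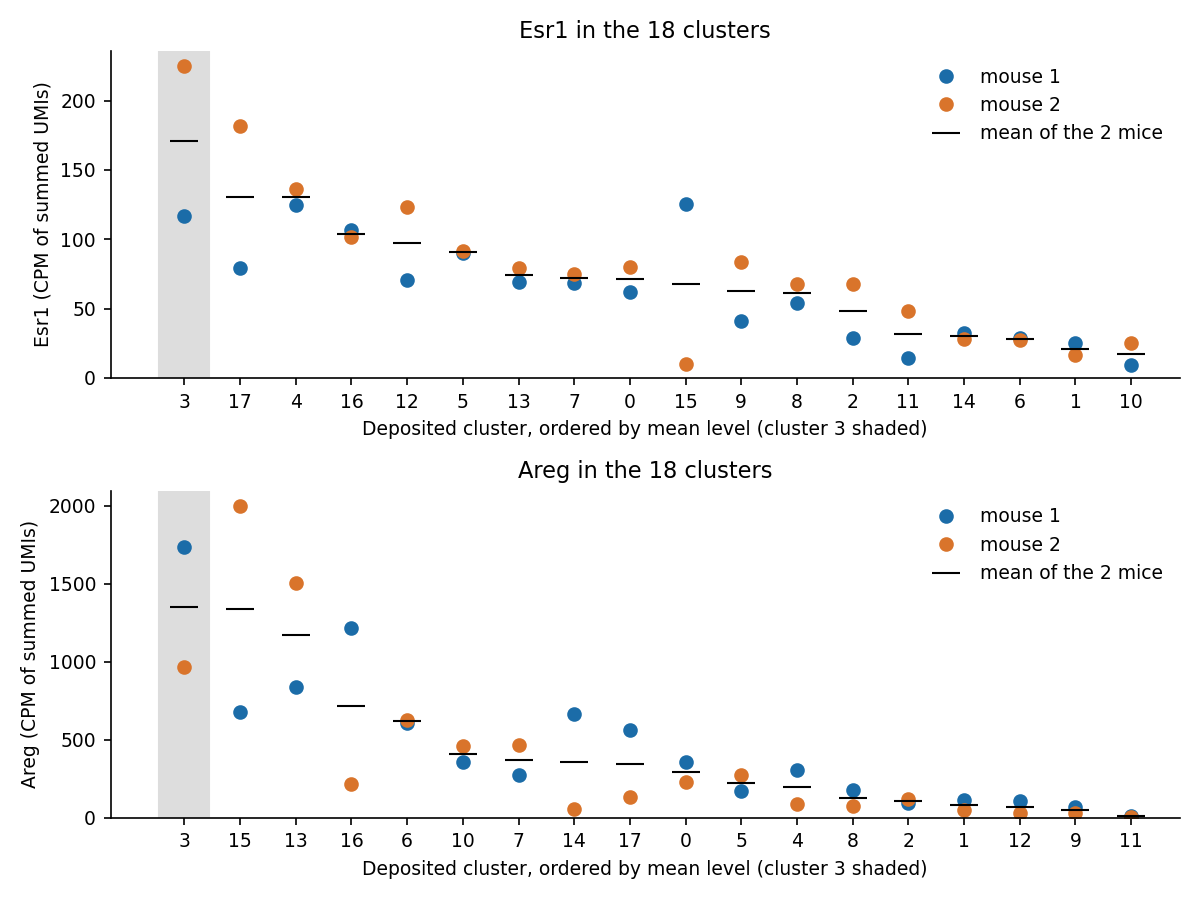
Esr1 (top) and Areg (bottom) in CPM of summed UMIs for each of the 18 clusters, ordered by the mean of the 2 mice; points are mice, black bars are means, and cluster 3 is shaded. Cluster 3 has the highest mean of both genes, but in mouse 1 its Esr1 level of 116.9 CPM lies below clusters 15 and 4, and in mouse 2 its Areg level of 970 CPM lies below clusters 15 and 13.

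The 2 markers lie on different chromosomes. Esr1 is at chr10:4611593-5005614 and Areg at chr5:91139599-91148432 on GRCm38, both on the plus strand. Against all other annotated cells of the same mouse, Esr1 was 1.74-fold higher in mouse 1 (119.5 against 68.7 normalized CPM) and 2.87-fold higher in mouse 2 (225.3 against 78.6). The fitted log2 fold change was 1.16 with a standard error of 0.19 from the fit. The SD of the log2 ratio between the mice was larger, 0.51. Areg was 4.59-fold higher in mouse 1 (1777 against 387.2 normalized CPM) and 3.78-fold higher in mouse 2 (970 against 256.4), with a fitted log2 fold change of 2.06 and a standard error of 0.16. The SD of its log2 ratio between the mice was 0.20. The ratio of both genes was above 1 in 2 of 2 mice. With 2 mice an exact test of signs cannot give a p below 0.5.

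Cells of cluster 3 were deep, and depth alone raises the share of cells with a UMI. Their median was 24494.5 UMIs in mouse 1 and 17646 in mouse 2, against 13817 and 9179 in the other cells, and only 2 clusters of each mouse had a higher median. Each cell was therefore thinned to 2000 UMIs, which left out 0 and 1 cells of cluster 3 and 492 and 856 other cells. An Esr1 UMI was then found in 20.2% of cluster 3 cells in mouse 1 (89 of 440, exact 95% interval 16.6% to 24.3%) and in 30.1% in mouse 2 (47 of 156, 23.1% to 38.0%). The shares in the other cells were 9.01% (261 of 2897, 7.99% to 10.1%) and 11.8% (511 of 4317, 10.9% to 12.8%). Taken singly, cluster 15 had a higher share than cluster 3 in mouse 1, 24.6% (47 of 191, 18.7% to 31.3%). No cluster did in mouse 2. Before thinning, the shares were 73.9% and 72.0% in cluster 3 and 32.3% and 30.8% in the other cells. The intervals cover counting error only.

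Areg was found in 70.7% of thinned cluster 3 cells of mouse 1 (311 of 440, 66.2% to 74.9%) and in 48.7% of those of mouse 2 (76 of 156, 40.6% to 56.8%). In the other cells it was found in 21.7% and 16.3%. Cluster 16 had 47.1% in mouse 1 (16 of 34). In mouse 2 cluster 13 had 57.4% (105 of 183), above cluster 3, and cluster 15 had 47.1% (8 of 17). As a measure of free RNA, barcodes without annotation were thinned in the same way. Those with at least 3 macrophage genes and fewer than 3 pan-luminal genes (such as Krt8 and Epcam) were kept. Leaving out barcodes with more luminal genes can make this background lower than the true one. There 0 of 14 and 0 of 88 barcodes had an Esr1 UMI, which allows shares of up to 21.4% and 3.41%, and 0 of 14 and 4 of 88 (4.55%) had an Areg UMI. These barcodes had medians of 8500.5 and 5033.5 UMIs before thinning. For mouse 1, 14 barcodes are too few to set a background for Esr1.

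Within cluster 3, cells with an Esr1 UMI did not have an Areg UMI more often than cells without one at this depth. In mouse 1, Areg was found in 64.0% of cells with an Esr1 UMI (57 of 89, 53.2% to 73.9%) and in 72.4% of cells without one (254 of 351, 67.4% to 77.0%). In mouse 2 the shares were 38.3% (18 of 47, 24.5% to 53.6%) and 53.2% (58 of 109, 43.4% to 62.8%). The intervals overlap in both mice. A cell without an Esr1 UMI among 2000 may still express the gene.

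**Figure D2:**
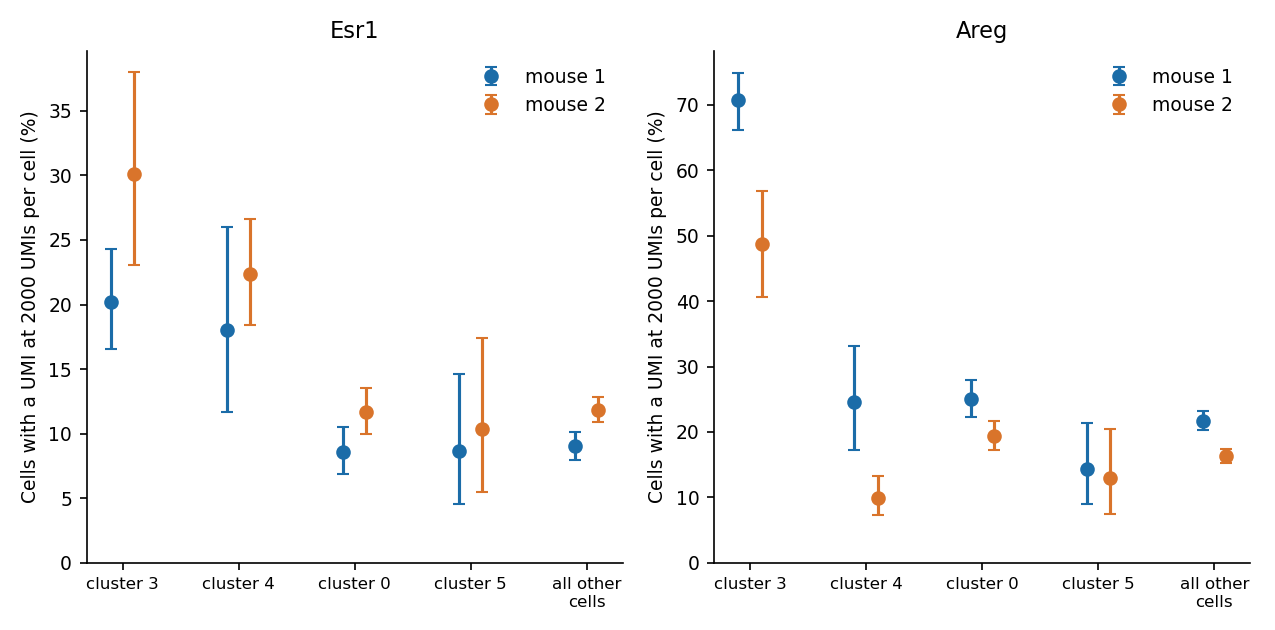
Share of cells with at least 1 UMI of Esr1 (left) or Areg (right) after thinning to 2000 UMIs per cell, in cluster 3, its 3 most alike clusters and all other annotated cells; bars are exact 95% intervals for counting error and colours are mice. The Areg shares of cluster 3, 70.7% and 48.7%, lie above those of each other group shown, while the Esr1 shares of clusters 3 and 4 have overlapping intervals in both mice. Cluster 13, which is not shown, had an Areg share of 57.4% in mouse 2.

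Normal hormone-sensing cells express more than Esr1, and most of that set was low in cluster 3. A gene was called where its normalized CPM differed at least 1.5-fold in the same direction in each of the 2 mice. Of all 14255 genes tested, 2.95% (420) were called higher and 13.2% (1888) were called lower than in the other annotated cells. Of 10 tested genes of the hormone-sensing lineage, 1 was higher, Esr1 itself, and 6 were lower. Pgr, itself an estrogen target, had 4 UMIs in mouse 1 and 0 in mouse 2. Tbx3, a transcription factor of ductal development, had 0 in both mice. In mouse 2 the other cells had only 0.886 CPM of it, below the 1.07 CPM that 3 UMIs make in cluster 3, so the difference there is not resolved. Foxa1 was at 1.01 and 3.93 normalized CPM, against 5.57 and 8.78 in the other cells. Cited1, a coactivator of the estrogen receptor, was at 1.11 CPM in mouse 1 against 16.6. Gata3, the luminal transcription factor, was 0.94-fold and 1.23-fold the level of the other cells. These low levels were shared with many clusters. Measured against the median of the other 17 clusters, 1 of the 10 genes was higher and 0 were lower, beside 812 and 729 of all 14255 genes.

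The summed level of the hormone-sensing list was 445.6 CPM in mouse 1, where it ranked 10 of 18, and 450.7 CPM in mouse 2, where it ranked 3. The highest cluster reached 3186 and 4151 CPM. The authors' own signature scores, which run from 0 to 1, were also low for both luminal signatures. The mean mature luminal score of cluster 3 was 0.0834 in mouse 1 and 0.0765 in mouse 2, the lowest of the 18 clusters in both, against 0.256 and 0.263 in the other cells. Its mean luminal progenitor score was 0.119 in mouse 1 and 0.0987 in mouse 2, against 0.459 and 0.415, and ranked 17 and 18 of 18. Its mean basal score was 0.163 and 0.0597, against 0.253 and 0.205, and ranked 10 and 16 of 18, so that it was mid-range in mouse 1.

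Among 19 tested targets of the estrogen receptor, 2 were called higher and 8 lower, with a median log2 fold change of -0.37 beside -0.02 over all tested genes. With genes at 0 UMIs set to the level of 3 UMIs, that median was -0.36. Against the median of the other 17 clusters, a second reference described below, 3 were higher and 3 lower. As a sum the targets ranked 1 of 18 in mouse 1 and 5 in mouse 2, with Areg the largest part in mouse 1. Areg, itself a marker of the cluster, made 1738 of 3272 CPM in mouse 1 and 970 of 2214 in mouse 2. In the other cells it made 383 of 1983 and 265 of 1724 CPM. The 2 higher genes were Areg and Ccnd1, which encodes cyclin D1 and drives cells out of the G1 phase. Ccnd1 was at 498 normalized CPM in mouse 1 against 276 in the other cells, and at 362 against 184 in mouse 2, or 1.80-fold and 1.96-fold higher. It ranked 3 of 18 in both mice. Myb was 1.41-fold and 3.15-fold and Myc 1.16-fold and 1.60-fold the level of the other cells, and neither passed in both mice. The lower targets included Pgr, Greb1 at 8 and 2 UMIs, and Ctsd, the lysosomal protease cathepsin D, which was 0.60-fold and 0.47-fold. Of 15 cofactors of the receptor 0 were higher and 1, Foxa1, was lower, and 0 were called against the median cluster.

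Among the ligands of the EGF receptor family, 2 of 8 tested genes were called higher, Areg and Tgfa, and 2 were called lower, the neuregulins Nrg1 and Nrg2. Against the median cluster 3 were higher, Areg, Tgfa and Epgn, and 1, Nrg1, was lower. Tgfa, which encodes transforming growth factor alpha, was at 48.0 normalized CPM in mouse 1 against 20.7, and at 45.8 in mouse 2 against 21.9. That is 2.32-fold and 2.09-fold higher, and it ranked 1 and 3 of the 18 clusters. Epgn, the ligand epigen, was 4.55-fold higher in mouse 1 and 1.45-fold in mouse 2 and missed the call. Hbegf, the most abundant ligand after Areg, was 1.04-fold and 0.73-fold. Nrg1 was at 2.67 and 2.86 CPM against 17.5 and 19.1, and it was the lowest of the 18 clusters in mouse 2. The summed ligands reached 2738 CPM in mouse 1, the highest of the 18 clusters, and 1481 CPM in mouse 2, where they ranked 5. The marker Areg made 1738 and 970 CPM of these sums. In the other cells it made 383 of 1302 and 265 of 944 CPM.

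The receptors of these ligands did not follow them. Of 4 receptor genes 0 were called in either direction. Egfr was at 22.4 normalized CPM against 69.5 in mouse 1, and at 37.9 against 44.5 in mouse 2. Erbb3, the neuregulin receptor, was 0.88-fold and 0.85-fold. Of 16 feedback genes and targets of the ERK kinases, which act downstream of these receptors, 0 were higher and 1, Egr1, was lower, and their median log2 fold change was -0.0044. Dusp6, an ERK phosphatase, was 1.19-fold and 1.53-fold the level of the other cells. Rps6ka1, the ERK-activated kinase RSK1, was 1.72-fold and 1.75-fold higher, ranked 2 and 1 of 18, and is outside that list. With cells thinned to 2000 UMIs its log2 fold change was 0.54 in place of 0.79, which is under 1.5-fold.

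Most calls were of low genes. Of the 420 genes called higher, 397 were below 50 normalized CPM in cluster 3 in at least 1 mouse, and the other 23 were above it in both. With every cell thinned to 2000 UMIs, 107 of the 420 higher and 698 of the 1888 lower genes were called again. The largest difference among these from the summed other cells was that of Smr3a, which encodes a proline-rich secreted protein of salivary and lacrimal glands. It was at 714.8 normalized CPM in mouse 1 against 116.7 in the other cells, and at 235.6 against 22.5 in mouse 2, or 6.12-fold and 10.5-fold higher. The fitted log2 fold change was 2.99 with a standard error of 0.20 from the fit, and the SD of the log2 ratio between the mice was 0.55. It was 5.79 against the median of the other 17 clusters but 1.33 against their equally weighted mean, where Areg, at 1.76, stood above it. It ranked 2 of 18 clusters in both mice, behind cluster 16 in mouse 1 and cluster 15 in mouse 2. Smr3a has close relatives in the genome, such as Smr2, so how reads were divided among them is uncertain.

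Smr3a came from few cells. In mouse 1, 272 of 440 cluster 3 cells had no Smr3a UMI before thinning, and the 10% of cells with the most UMIs held 92.1% of all of them, with up to 644 in 1 cell. In mouse 2, 116 of 157 cells had none, and the top 10% held 90.1%. The top 10% of cells held 39.7% and 56.4% of Areg UMIs and 36.8% and 34.1% of Esr1 UMIs. The median cell of mouse 1 had 26 Areg UMIs and 2 Esr1 UMIs, and that of mouse 2 had 4 and 3. Smr3a thus differed from both markers in that most cells of the cluster lacked it.

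Among the other named higher genes, Egln3, a prolyl hydroxylase that marks hypoxia-inducible factors for destruction and is itself induced by low oxygen, was 2.54-fold and 3.55-fold higher and ranked 1 and 2 of 18. It was the only higher gene of 15 tested hypoxia and glycolysis genes, of which 4 were lower (2 higher and 3 lower against the median cluster), among them Ndrg1 at 0.27-fold and 0.35-fold. Ckb, the brain type creatine kinase, was at 268.6 and 184.9 normalized CPM against 110.4 and 63.9, and ranked 2 of 18 in both mice. Phgdh, the first enzyme of serine synthesis, was 2.01-fold and 2.05-fold higher.

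Fbln2, which encodes fibulin 2, was 1.91-fold and 3.55-fold higher. Col9a1, a chain of type IX collagen, was at 189.8 CPM against 108.1 in mouse 1 and at 252.4 against 47.3 in mouse 2. Emid1, a secreted protein with an EMI domain, was 1.79-fold and 2.77-fold higher. Col3a1, a fibroblast collagen gene, and the proteoglycan gene Dcn had 0 UMIs in cluster 3 of both mice, and the matrix genes Sparc, Mgp, Spp1 and Postn were called lower. Dcn was at 34.2 and 38.4 CPM in the other cells, so that it was at least 127-fold lower in mouse 1 and at least 35.8-fold lower in mouse 2, taking 3 UMIs per mouse as the floor.

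Lgals7, which encodes the epithelial lectin galectin-7, was 2.43-fold and 2.46-fold higher and was the only one of the 15 named higher genes that led all 18 clusters in both mice. It was at 959 CPM in mouse 1, where cluster 4 came next with 699.7, and at 1913 CPM in mouse 2, where cluster 7 came next with 1631.6. Tead4, a transcription factor of the Hippo pathway, was 1.83-fold and 2.30-fold higher. Il24, a cytokine of the interleukin 10 family, was 1.69-fold and 3.38-fold higher. The predicted gene Gm1673 was 2.17-fold and 7.59-fold higher. Wap, the whey acidic protein of milk, was 1.55-fold and 3.85-fold higher, at 68.6 and 21.5 normalized CPM, while 4 of the other 7 tested milk protein genes were lower, 1 of them, Btn1a1, also against the median cluster. Wap was named after its value was seen.

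**Figure D3:**
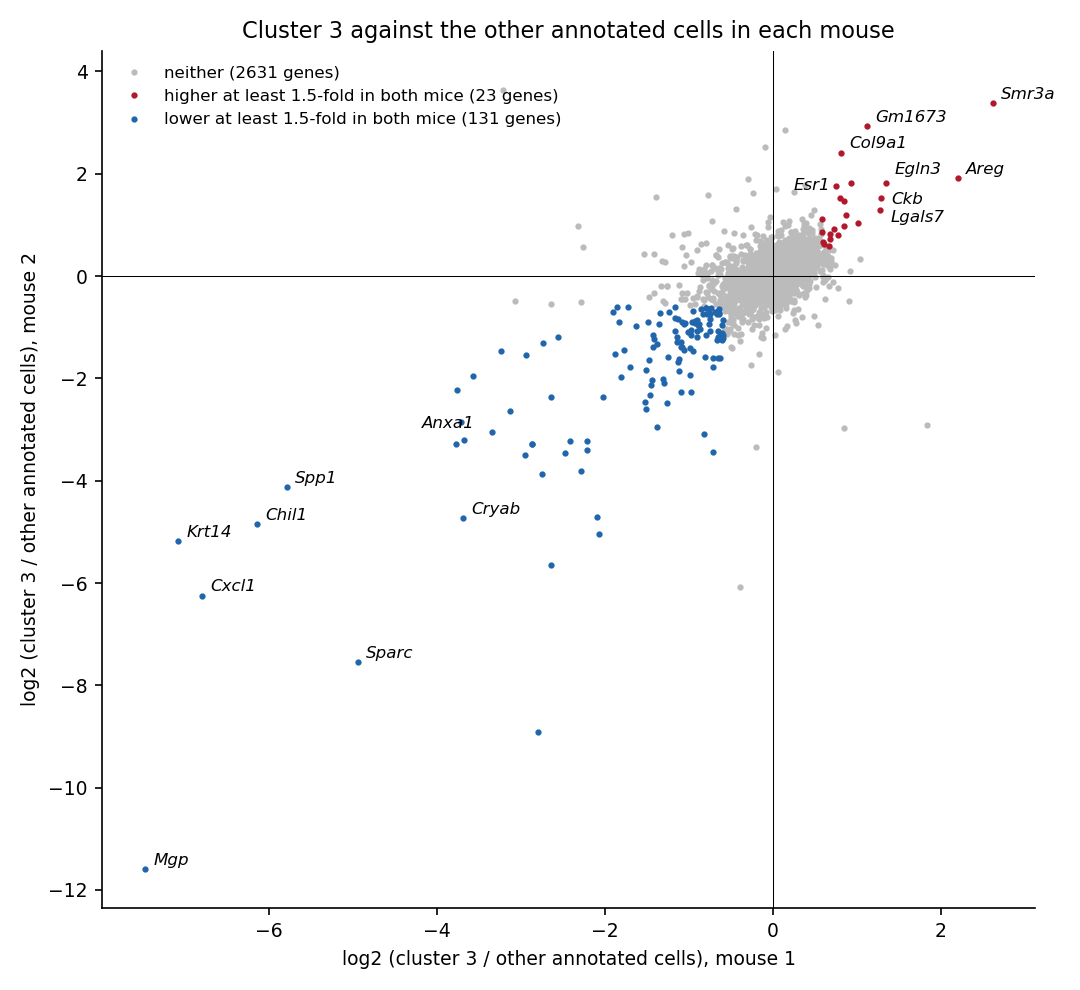
Log2 ratio of normalized CPM in cluster 3 to those in all other annotated cells, in mouse 1 (x axis) and mouse 2 (y axis), for the 2785 genes that reach 50 CPM in cluster 3 or in the other cells in each mouse. Red marks 23 genes called higher and blue marks 131 called lower; Smr3a and Areg stand farthest to the upper right, and lower genes reach larger ratios than higher ones.

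Cluster 3 led few genes. Among 4745 genes that reached 50 CPM in some cluster of each mouse, it had the highest level in both mice for 10, the fewest of any cluster. Besides Lgals7 these were Bzw1, Anxa6, Trappc4, Vps35, Elp5, Coro1c, Tmem120a, Gtf2f1 and Snhg4, most of them genes that many cell types use. For 8 of the 10 the difference from other cells was too small for a call.

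Genes lower in cluster 3 were led by Mgp, which encodes matrix Gla protein, an inhibitor of calcification. It had 23 UMIs in mouse 1 (2.12 normalized CPM against 380 in the other cells) and 0 in mouse 2 (against 52.8), where it was at least 50.8-fold lower. It was the lowest of the 18 clusters in both mice. Spp1, the gene of osteopontin, was 55.1-fold and 17.5-fold lower, and Chil1, a chitinase-like lectin, was 70.7-fold and 28.8-fold lower. Anxa1, which encodes annexin A1, was at 77.0 and 145.2 CPM against 778.8 and 1200, and ranked 18 and 17 of 18. Cryab, a small heat shock protein, Cst3, which encodes cystatin C, Pgf, a ligand of the vascular endothelial growth factor family, and the secretoglobin Scgb2b27 were each at least 7.3-fold lower in both mice.

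How many genes counted as lower depended on what cluster 3 was set against. Some genes were carried mainly by few clusters, so that the sum of the other cells lay far above the typical cluster. Sparc, a matrix glycoprotein, was at 224.4 CPM in the summed other cells of mouse 1 and reached 2517 CPM in 1 cluster, with a median of 17.1 CPM over the other 17 clusters and 7.21 CPM in cluster 3. Against the median of the other 17 clusters, a comparison chosen after the data were seen, 812 of the 14255 tested genes were higher and 729 lower. This turns the share of higher genes among all calls from 18.2% to 52.7%. The equally weighted mean of the other 17 clusters, a planned reference, moved it the other way. There 228 genes were higher and 2100 lower, a share of 9.79%. Of the 1888 lower genes 693 were shared with that comparison, and of the 420 higher genes 362 were. Counts against the median cluster are given beside those against the summed other cells for the lists below. For rare genes that median can be at or near 0 CPM, so that a higher call there can rest on few UMIs. Chac1, for example, was at 1.43 CPM on 4 UMIs in mouse 2, against a median of 0.

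**Figure D4:**
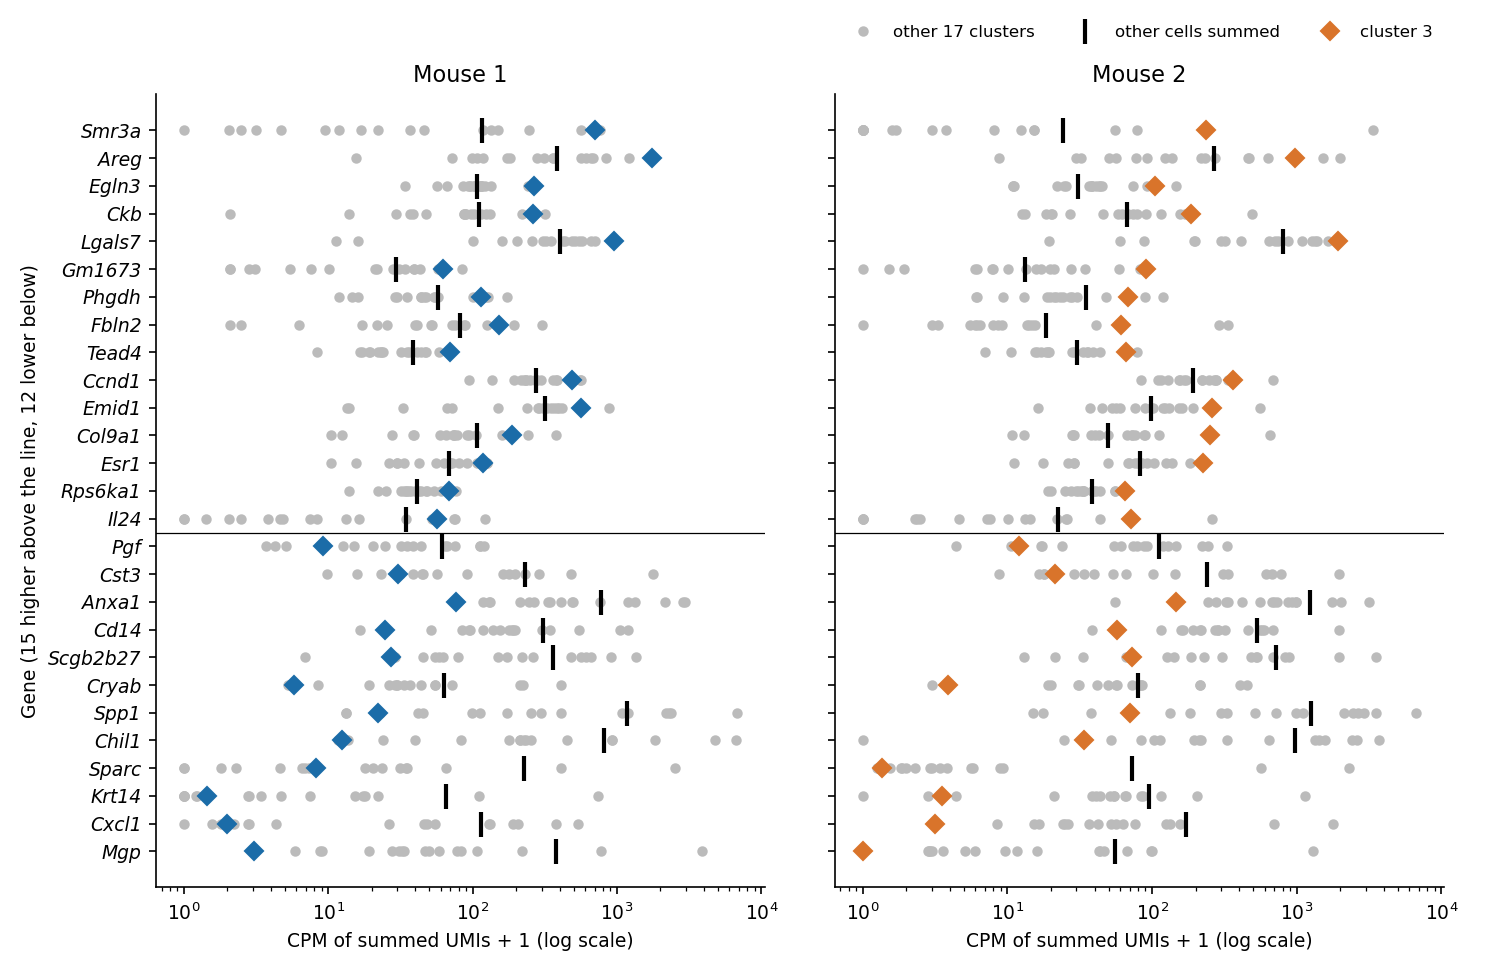
CPM of summed UMIs, plus 1, on a log axis, for the 15 named genes called higher (above the line) and the 12 called lower (below) in mouse 1 (left) and mouse 2 (right). Diamonds are cluster 3, grey points the other 17 clusters and black ticks the sum of all other annotated cells; for Sparc the tick lies above most grey points, while for Anxa1 and Cd14 cluster 3 lies near the low end of all clusters.

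Immediate early genes, lower against both references, respond within minutes to growth factors and to stress such as tissue digestion. Of 17 tested immediate early and heat shock genes, 0 were higher and 9 were lower than in the other cells, and 6 were lower than in the median cluster. Fos, a subunit of the AP-1 factor, was at 22.3 and 63.6 normalized CPM against 291.6 and 459.6, or 13.1-fold and 7.22-fold lower. Fos, Atf3 and Btg2 were each the lowest of the 18 clusters in both mice. Atf3, a stress-induced transcription factor, was 5.53-fold and 10.96-fold lower, and Fosb was 7.29-fold and 9.68-fold lower. The heat shock genes Hspa8 and Hsp90aa1, which encode abundant chaperones, were not called, Hspa8 at 1369 and 1149 normalized CPM against 1305 and 1234 and Hsp90aa1 at 1090 and 1015 against 1154 and 1109. The share of mitochondrial UMIs, a sign of cell damage, had a median of 6.76% and 5.40% in cluster 3 against 6.10% and 5.42% in the other cells. The part of cell damage in these genes was not tested.

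Many chemokine and cytokine genes were low in cluster 3. Of 13 tested genes, 0 were higher and 12 were lower, and 6 were lower than in the median cluster. Cxcl1, which attracts neutrophils, was at 1.01 and 2.15 normalized CPM (11 and 6 UMIs) against 114.5 and 163.9, or 111-fold and 75.8-fold lower. Tnf was at 2.67 and 2.15 CPM against 27.3 and 18.1, and ranked 18 and 16 of 18. Il6 had 0 UMIs in both mice. Csf3, the granulocyte growth factor, was the exception, at 757 and 326 CPM against 649 and 459. As a sum, of which Csf3 was the largest part, the list was at 867.3 and 433.5 CPM in cluster 3 and at a median of 634.2 and 631.1 CPM over the other 17 clusters. Cd14, a receptor for bacterial lipopolysaccharide and a marker of luminal progenitors, was 12.8-fold and 9.18-fold lower.

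Interferon-induced genes were lower as well. Of 11 tested, 0 were higher and 8 were lower, and 7 were lower than in the median cluster. Ifit3 was at 2.03 CPM in mouse 1 against 31.5, and Rsad2, an antiviral enzyme, was 4.73-fold and 4.36-fold lower. The list's sum was 216 CPM in mouse 1, the lowest of the 18 clusters, and 307.7 CPM in mouse 2, where it ranked 13, against 650 and 394 CPM in the other cells. Bst2 and Rtp4 were lower in mouse 1 only, at 0.48-fold and 0.37-fold there and at 1.14-fold and 1.07-fold in mouse 2.

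Areg lies in a stretch of chromosome 5 that also holds the Cxcl chemokines, and the neighbours went in opposite directions. Of 11 tested protein-coding genes that start within 500 kb of the start of Areg, 1 was higher, Areg itself, and 5 were lower, Cxcl5, Pf4, Cxcl1, Cxcl2 and Parm1. Over all tested genes 2.95% were higher and 13.2% lower. Pf4 was at 0 in cluster 3 of mouse 2 and at 0.876 normalized CPM in the other cells. That is below the 1.07 CPM that 3 UMIs make, so its call is not resolved there. Cxcl1 starts 248 kb before Areg. Btc, another EGF receptor ligand that starts 218 kb after Areg, was 1.23-fold and 0.75-fold. Smr3a lies on the same chromosome, among casein genes. Of 13 tested genes within 500 kb of its start, 3 were higher, Smr3a, Prr27 and Odam, and 4 were lower, among them the milk caseins Csn2 and Csn1s1. Another of the 4, Sult1e1, was at 0 against 0.733 normalized CPM in mouse 2, so its call is not resolved there either. Prr27, another proline-rich protein gene, was at 16.2 and 6.44 normalized CPM against 2.00 and 0.393. These windows were chosen after the values were seen. The promoters of Areg, the higher gene of this stretch, and of Cxcl1, the lower gene named by rule, are shown, each as 250 bases before and 50 after the start in RefSeq on GRCm38.p6, plus strand, with matches to searched motifs in capitals.
Areg, chr5:91139349-91139648: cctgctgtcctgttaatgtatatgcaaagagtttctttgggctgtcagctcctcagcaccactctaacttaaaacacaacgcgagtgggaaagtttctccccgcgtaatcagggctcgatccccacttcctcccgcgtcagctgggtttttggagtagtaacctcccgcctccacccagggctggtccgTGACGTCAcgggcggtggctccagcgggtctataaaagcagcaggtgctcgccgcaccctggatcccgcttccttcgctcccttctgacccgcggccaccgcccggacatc
Cxcl1, chr5:90890995-90891294: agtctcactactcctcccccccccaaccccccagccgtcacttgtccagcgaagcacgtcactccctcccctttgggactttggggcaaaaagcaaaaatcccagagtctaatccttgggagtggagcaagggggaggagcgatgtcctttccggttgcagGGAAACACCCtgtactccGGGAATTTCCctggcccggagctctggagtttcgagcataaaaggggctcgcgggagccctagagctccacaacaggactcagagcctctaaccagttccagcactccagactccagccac

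Both strands were searched for the cyclic AMP response element TGACGTCA, the estrogen response element GGTCANNNTGACC, the AP-1 site TGANTCA and the kappa B site GGGNNTTTCC. Areg holds 1 cyclic AMP response element, a motif found in 1.79% of 32851 promoters of this length, and the element's first base lies 61 bases before the start. Cxcl1 holds 2 kappa B sites, a motif found in 1.63% of promoters. Of the 15 named higher genes, 12 had a promoter in the table, and 1 of these, Areg, held the cyclic AMP element, 1, Smr3a, held an AP-1 site and 0 held the estrogen element, motifs found in 7.81% and 0.070% of all promoters. Of the 12 named lower genes, 9 had one, and 2, Cxcl1 and Krt14, held a kappa B site. A match describes the letters and is not evidence of binding.

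Nearly all cluster 3 cells carried luminal keratin transcripts. At 2000 UMIs, 99.8% of its cells in mouse 1 (439 of 440) and 99.4% in mouse 2 (155 of 156) had a UMI of Krt8 or Krt18. Of 12 tested pan-luminal genes 0 were higher and 5 were lower, Krt18, Krt19, Muc1, Elf3 and Ehf, and 3, Krt19, Elf3 and Ehf, were lower than in the median cluster. Krt8 was not called, at 3600 and 4338 normalized CPM against 5103 and 6405. Krt19 was at 64.9 and 141.6 normalized CPM against 405.2 and 725.8, or 6.24-fold and 5.13-fold lower. Elf3, an epithelial transcription factor, was 5.33-fold and 9.36-fold lower and ranked 16 and 17 of 18. Epcam, Cldn3, Cldn4, Cldn7 and Cd24a were all between 0.84-fold and 1.15-fold. Of 10 luminal progenitor genes 5 were lower, and 2 against the median cluster, Kit and Cd14. Kit was at 0.40-fold and 0.15-fold, while Elf5, which specifies the alveolar fate, was at 0.95-fold and 1.15-fold.

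Most basal and mesenchymal genes were lower in cluster 3 than in the summed other cells, but few were lower than in the typical cluster. Krt5 had 0 UMIs in both mice and Krt14 had 5 and 7, and a UMI of either was found in 1 of 440 and 0 of 156 thinned cells, the second of which allows up to 1.92%. Of 17 tested basal genes 0 were higher and 12 were lower than in the other cells. Only 1, Krt14, was lower than in the median cluster, and 4 were higher, Krt15, Myh11, Cnn1 and Pdpn. Cnn1 had 6 UMIs in mouse 2, at 2.14 CPM against a median of 0.67, so its call there rests on few UMIs. The summed basal list was at 370 and 330 CPM beside medians of 316 and 317 over the other 17 clusters, and ranked 5 and 9 of 18. Of 11 mesenchymal genes 8 were lower, and 2, Vim and Sparc, were lower than in the median cluster and 1, Twist1, was higher. The whole mesenchymal list held 75 UMIs in cluster 3 of mouse 2. A list of plasticity genes had been chosen on these very samples and is not independent evidence. Of its 6 tested genes 2 were lower, Spp1 and Postn, also against the median cluster, where Nes was higher. Sox10 was 1.04-fold and 1.25-fold and Nes 1.15-fold and 1.66-fold the level of the other cells.

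Markers of cell types that the gate should remove were near 0. The 12 fibroblast genes summed to 4.51 CPM in mouse 1 and 5.00 in mouse 2, with Col3a1 and Dcn at 0, against 118.6 and 108.6 in the other cells. The endothelial list summed to 3.97 and 7.15 CPM, with Cdh5 and Emcn at 0, and the macrophage list to 13.1 and 6.43 CPM, most of which is Cd68. No thinned cell of cluster 3 had 3 or more macrophage or fibroblast genes, 0 of 440 and 0 of 156, which allows up to 0.682% and 1.92%. Of these lists 11, 4 and 6 genes were called lower, of 12, 6 and 7 tested. Against the median cluster only 1, 0 and 1 were lower, Dcn and Cd68, and 1 fibroblast gene, Fbln1, and 1 endothelial gene, Kdr, were higher. The whole fibroblast and endothelial lists held 14 and 20 UMIs in cluster 3 of mouse 2, so both higher calls rest on few UMIs. No barcode of cluster 3 was shared by both libraries, among 20 shared barcodes in all.

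Cell division genes were low against the other cells and not against the typical cluster. Of 12 mitosis genes 0 were higher and 10 were lower than in the other cells, while 3 were higher than in the median cluster and 0 were lower. The mitosis list summed to 40.8 CPM in mouse 1 and 70.0 in mouse 2, ranks 6 and 9 of 18, and the highest cluster reached 1906 and 2380 CPM. Of 14 cell cycle regulators, Ccnd1 was higher, and Ccnd2 and Rb1 were lower. Cdk4, the partner of cyclin D1, was 1.28-fold and 1.90-fold, and Rb1, the brake that they switch off, was 0.49-fold and 0.35-fold. Cluster 3 thus had more Ccnd1 and less Rb1 transcript than the other cells without a higher level of mitosis genes.

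Cytosolic ribosomal protein genes were slightly higher as a group. None of 81 reached 1.5-fold in both mice, but their median log2 fold change was 0.35 beside -0.02 over all genes. They summed to 227286 CPM against 187722 in mouse 1 and to 255514 CPM against 194921 in mouse 2, ranks 5 and 2 of 18. Rps24 was 1.54-fold and 1.40-fold. The 13 genes of the mitochondrial genome held 69324 and 54210 CPM, against 64574 and 60443.

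**Figure D5:**
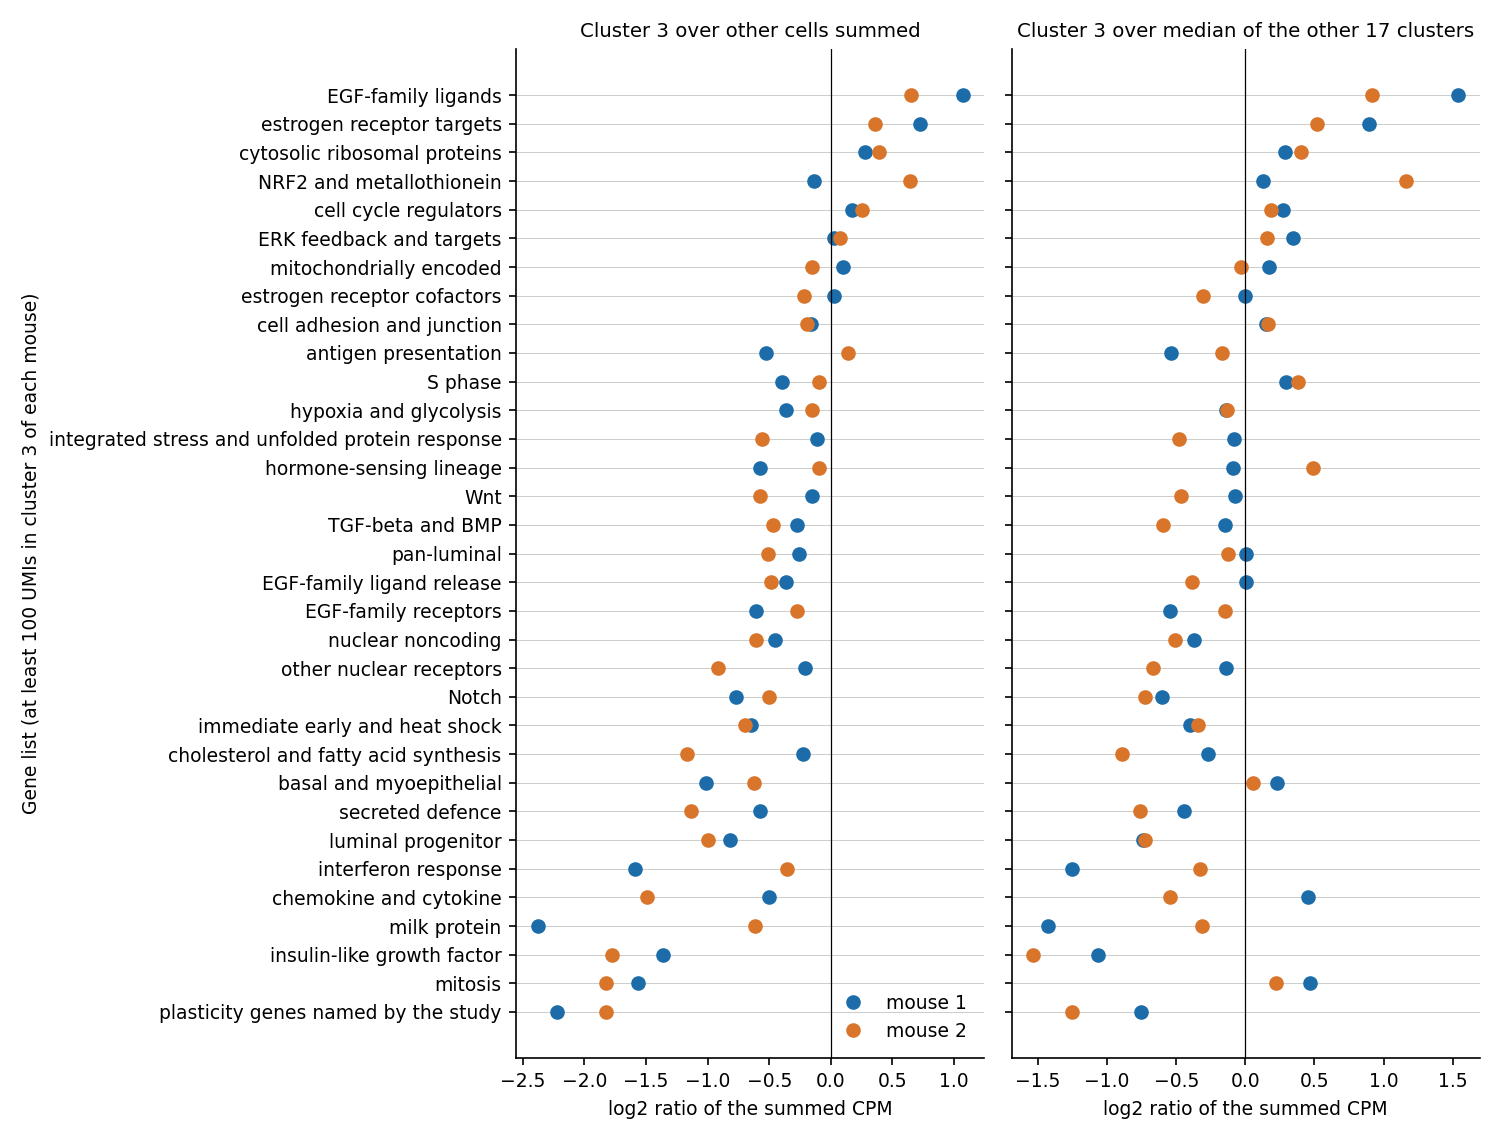
Log2 ratio of the summed CPM of each gene list in cluster 3 to all other annotated cells summed (left) and to the median of the other 17 clusters (right), for lists with at least 100 UMIs in cluster 3 of each mouse; points are mice. Ligands of the EGF receptor family and estrogen receptor targets lie above 0 in both panels, while mitosis and basal genes lie below 0 only on the left. The ligand and target lists both hold the marker Areg, which made 1738 CPM of each sum in mouse 1 and 970 CPM in mouse 2. Sums without Areg are not shown.

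Further signalling and metabolic lists are read against the 2.95% of all tested genes called higher and the 13.2% called lower than in the summed other cells. There, 0 or 1 higher gene in a list of this size is near that background. Counts against the median cluster have another background, 812 higher and 729 lower of all 14255 tested genes. Of 11 tested genes of the insulin-like growth factor system, which carries growth signals and their binding proteins, 0 were higher and 7 were lower, but only Igfbp5 was lower than in the median cluster. Of 10 Notch genes 4 were lower and of 15 Wnt genes 6 were, each with 2 lower than in the median cluster, Notch4 and Dll1, and Wnt5b and Lgr5. Of 17 genes of the TGF-beta and BMP pathways 3 were lower, Fst, Tgfb1 and Id1. Fst, which encodes the activin inhibitor follistatin, was among 2 genes higher than in the median cluster, so its direction turned with the reference. Of 14 genes of cholesterol and fatty acid synthesis 3 were lower against both references, Scd1, Srebf1 and Insig1.

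Of 11 genes of the integrated stress and unfolded protein responses 2 were lower, Herpud1 and Sesn2, and of 9 NRF2 targets and metallothioneins, which guard against oxidants and metals, 0 were called. Against the median cluster 1 gene of the first list was higher, Chac1, on 4 UMIs in mouse 2, and 1 lower, Herpud1. Of the second 2 were higher, Srxn1 and Mt2, and 0 lower. Of 10 secreted defence genes 1 was higher, Bpifb1, and 5 were lower, among them Ltf, which encodes lactoferrin, while against the median cluster Bpifb1 was higher and only Saa3 was lower. Of 12 S phase genes 2 were lower, while against the median cluster 0 were lower and 2 were higher, Mcm2 and Mcm3, so the direction turned with the reference. Of 12 other nuclear receptors 3 were lower, Nr4a1, Thrb and Rxra, the last 2 of them also against the median cluster. Of 9 antigen presentation genes 1, Tap2, was lower, and against the median cluster 1 was, Tap1. Of 13 adhesion and junction genes 0 were called, and against the median cluster 1, Pkp1, was higher. Of 5 genes that promote or inhibit the release of EGF family ligands from the membrane, 1, the protease inhibitor Timp3, was lower. Adam17, the main amphiregulin sheddase, was not called. Against the median cluster 0 of the 5 were called. Of 4 nuclear noncoding RNAs H19 was lower, and against the median cluster 0 were called.

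By its whole profile, cluster 3 was most like clusters 4, 0 and 5 as a mean of the mice. The Pearson correlation of log2 CPM across the 14255 tested genes was 0.969, 0.967 and 0.961, where the points are genes of the same 2 libraries. In mouse 1 cluster 15 was as alike, at 0.9716 beside 0.9715 in cluster 0 and 0.9714 in cluster 5. In mouse 2, where cluster 15 held 17 cells, it reached 0.877. Against cluster 4, 4.93% of genes were higher and 4.82% lower. Esr1 was not among them, at 116.9 against 124.6 CPM in mouse 1 and 225.1 against 136.0 in mouse 2. Areg was at 1738 against 309.6 CPM and at 970 against 91.3. The largest differences were Smr2 and Smr3a, higher in cluster 3, and Scgb2b27, Birc5 and Lalba, lower. Birc5, the mitotic protein survivin, was at 3.25 and 7.505 CPM against 55.8 and 51.3. Clusters 3 and 4 thus shared a high Esr1 level and differed in Areg.

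Against cluster 0, the largest cluster with 2326 cells, 6.11% of genes were higher and 6.1% lower. Esr1 was higher in cluster 3 in both mice, against 61.9 and 80.3 CPM in cluster 0, and so was Ccnd1, against 192.6 and 114.1 CPM. Krt8 was lower, at 3521 and 4336 CPM against 7242 and 9642. Smr3a, Areg and Fbln2 differed most upward and Cxcl1, Spp1 and Cd14 most downward. Against cluster 5, 8.22% were higher and 4.3% lower. Esr1 was 1.30-fold and 2.45-fold there and missed the call, and Areg was at 1738 against 171 CPM and at 970 against 273. Cluster 5 was far shallower, with medians of 2059 and 1638.5 UMIs per cell, and the part of depth in these counts was not tested. Areg and Smr3a were the 2 genes among the 3 most raised in all 3 comparisons, which share the cluster 3 sums. Cluster 15, not among these 3, had less of both genes than cluster 3 in mouse 1 and more in mouse 2. There it had 3352 CPM of Smr3a and 1999 CPM of Areg. Ckb and Col9a1 were higher in cluster 15 than in cluster 3 in both mice.

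The mice differed within cluster 3 in a small set of genes. Of 1593 genes of at least 100 CPM in either mouse, 93.1% were within 2-fold, 69 were at least 2-fold higher in mouse 1 and 41 in mouse 2. In 34 of these the other cells of the mice differed at least 2-fold in the same direction. Slpi, a secreted protease inhibitor, was at 1385 CPM in mouse 1 and 34.3 in mouse 2, against 391 and 266 in the other cells. Mfge8, the milk fat globule protein that marks dying cells for uptake, was at 2536 and 34.3 CPM, and Ptgs2, which makes prostaglandins, at 126.3 and 1.07. Bpifb5 was at 124.8 CPM in mouse 1 with 1 UMI in mouse 2, and Cdkn1c, which encodes the cell cycle inhibitor p57, was at 120 and 16.1 CPM. Mfge8, Ptgs2, Bpifb5 and Cdkn1c also differed at least 2-fold in this direction in the other cells, so their differences were not particular to cluster 3. There they were at 1424 and 279, 167 and 75.9, 11.1 and 0.591, and 75.9 and 14.3 CPM. Csn3, the kappa casein of milk, was at 536 CPM in mouse 1 and 2811 in mouse 2, and Dkkl1, Ddah1, Tspan8 and Rbp7 were also higher in mouse 2. Slpi and these genes higher in mouse 2 did not differ 2-fold in the other cells. Each mouse gave 1 library, so mouse and library cannot be told apart.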

How the data were processed

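The 2 libraries (Chromium 3' v3.1) were processed by the authors with Cell Ranger (6.0.1, build mm10), and the deposited matrices hold UMI counts per gene and barcode. The authors annotated cells in Seurat (4.0.3 in the processing notes) after removing doublets (scDblFinder), shallow cells, mitochondrial outliers and immune clusters. Their deposited annotation gives clusters, UMI counts, the mitochondrial fraction and signature scores from 0 to 1. The gate, sort and integration can set which cells exist in a cluster.

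Counts were summed per mouse for cluster 3 (11088903 and 2798150 UMIs) and all other annotated cells (47541003 and 54174494). edgeR 4.0.16 (filterByExpr, TMM, quasi-likelihood, mouse as a block, prior count 0.5) gave normalized CPM and log2 fold changes. Standard errors were computed back from each fold change and its F statistic. That statistic borrows spread from all genes, so these errors do not measure the spread of the mice. The pairing comes from the animal, and same-mouse sums deviated together across genes (r = 0.463). Each fit had 1 residual degree of freedom. DESeq2 1.42.0, other references, thinning (seed 1) and leaving out a mouse were alternatives. The fits were tested on simulated data.

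Members and lists were chosen with earlier results of these data known. Named were Esr1 and Areg, the 15 higher and 12 lower genes with the largest ratio in their less extreme mouse at 50 CPM or more, up to 4 called genes of a list, and the extremes between mice and against each alike cluster. Further list members were named after their values were seen.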

Additional observations from a re-analysis of the deposited data

How the results depend on the processing

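The fold changes of Esr1 and Areg stayed positive under every alternative run. Without 1 mouse, the log2 fold change of Esr1 ranged from 0.80 to 1.52 and that of Areg from 1.92 to 2.20. Areg moved beyond the spread of the mice to 1.76 against the equally weighted mean of the other 17 clusters, to 2.66 against their median and to 2.34 without clusters 6 and 13 among the other cells. The 25 other genes named as higher or lower kept their direction in all 325 values under these alternatives, but 45 of these values moved by more than the spread of the mice. Smr3a moved from 2.99 to 1.33 against the equally weighted mean. Against the median cluster Chil1 moved from -5.52 to -3.48, Cst3 from -3.19 to -1.27, Krt14 from -6.22 to -2.90, Mgp from -7.57 to -4.32 and Sparc from -5.23 to -1.36. The counts moved more. With 1 mouse left out, 1109 to 1749 genes were higher and 3014 to 3575 lower, since 1 mouse then makes the call. At 2-fold, 133 were higher and 1168 lower. By adjusted p under 0.05, edgeR with the replicate block gave 139 and 852, of which 100 and 797 were among the calls reported, and DESeq2 gave 76 and 516. edgeR with no replicate block gave 0 and 13 (368 and 1317 at an unadjusted p under 0.05). Against the equally weighted mean of the other 17 clusters 228 were higher and 2100 lower, and against their median 812 were higher and 729 lower. Cells thinned to 2000 UMIs gave 1227 lower genes, and most calls were not made again: 107 of the 420 higher and 698 of the 1888 lower genes were. With no filter on low counts 4765 were lower, since more genes are then tested. DESeq2 size factors, total UMIs, the authors' gene list and leaving clusters 1 and 5 out of the other cells kept both counts within 1.5 times. Depth limits the low genes: 3 UMIs are 0.271 CPM in cluster 3 of mouse 1 and 1.07 CPM in mouse 2. Some genes counted as lower had 0 UMIs in cluster 3 of mouse 2 and lay below that level in the other cells. They include Tbx3, Notch4, Lef1, C1qb, C1qc, Ccl20, Pdgfrb, Pf4 and Sult1e1, and their calls are not resolved in mouse 2.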
